A study of Mus musculus with 4 samples.

Results

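Hematopoietic stem cells stay in the bone marrow because receptors on their surface bind signals and matrix made by the niche. Cxcr4 is the G protein-coupled receptor for the chemokine Cxcl12, which draws stem cells to the marrow and keeps them there. S1pr1 is a receptor for sphingosine-1-phosphate, a lipid that is abundant in blood and lymph and guides cells out of tissues. Robo4 is a single-pass receptor of the roundabout family, known from endothelium and from hematopoietic stem cells, where it takes part in their anchoring to the niche. The other members are integrin subunits, which act as pairs of an alpha and a beta chain. Itga4 pairs with Itgb1 (VLA-4) or with Itgb7, Itga5 with Itgb1 (VLA-5, the fibronectin receptor), Itga6 with Itgb1 (a laminin receptor), and Itgal with Itgb2 (LFA-1, the receptor of intercellular adhesion molecules). RNA of these 10 genes was measured in LSK cells, a marrow fraction sorted as c-Kit+ Sca-1+ and free of lineage markers that contains the stem cells, with and without the homeobox gene Meis1.

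The 10 genes were taken by name, of 28095 gene names on the array, and every probe with such a name was used. This gave 21 probes of 60 bases, of 41174 that are no controls. The rule itself uses names and no measured value. The Meis1-deficient (KO) cells came from Mx1-Cre Meis1fl/fl mice, and the control (WT) cells from Meis1fl/fl mice without Cre, so that both genotypes carried the floxed alleles on a C57BL/6J background. According to the sample labels, mice of both genotypes received 4 intraperitoneal injections of poly(I:C), 1.5 ug per g, at 4 to 8 weeks of age. The microarray methods and the deposited design text describe the control as sham-treated instead, so genotype and poly(I:C) treatment may not be separable. Each sample was RNA of cells pooled from several mice, with 2 pools per genotype and 1 array per pool. Mx1-Cre is driven by an interferon-responsive promoter and is not restricted to hematopoietic cells, so niche cells of these mice may have recombined too. The limma p-values rest only on spread between arrays of a genotype: that of the probe's own 2 arrays, drawn toward that of all tested probes.

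The replicate number of an array is also its slide: KO 1 and WT 1 shared slide 1, and KO 2 and WT 2 shared slide 2. Array KO 2 stood apart. Its 75th percentile of signal was 90.3, against 147 to 154 on the other arrays, and 49.2% of its spots were well above background, against 54.7% to 57.4%. All 14 LSK marker genes were well above background on all 4 arrays. Of the 2 Meis1 probes, A_52_P670612 read 0.25 and 0.22 in KO and 1.02 and 1.45 in WT, and A_52_P26195 read -2.46 and -3.54 in KO and -1.55 and -1.06 in WT. Neither probe passed the criteria given below, and A_52_P26195 did with the slide as a block. Both Meis1 probes lay lower on both KO arrays than on both WT arrays, although their position relative to the deleted exon was not analysed here. These and all levels that follow are log2 signals minus the 75th percentile of their own array, and a level of 1 probe cannot be set against that of another.

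Several of the receptors were read by more than 1 probe, and their probes did not give the same difference between genotypes. The widest range was that of Itga6, from -0.49 to 0.79 on the log2 scale. Probe sequences are shown for Cxcr4, Itgb1 and Itgal, where 1 probe of the gene holds a polyadenylation signal. Cxcr4 and Itgb1 each had 1 probe that lies upstream of the gene's other main probe on its strand, printed whole, with its position on mm9 as the array annotation gives it.
Cxcr4 A_52_P565353, chr1:130485659-130485718, minus strand: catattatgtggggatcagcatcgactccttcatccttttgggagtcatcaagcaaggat
Itgb1 A_52_P351816, chr8:131246349-131246408, plus strand: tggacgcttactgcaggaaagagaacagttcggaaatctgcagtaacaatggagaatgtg
The other probe of each of these genes held the hexamer AATAAA, the canonical polyadenylation signal, as did 1 probe of Itgal. For these, 30 of the 60 bases are shown, with the hexamer in capitals.
Cxcr4 A_52_P585124, bases 31 to 60 of the probe at chr1:130485079-130485138, minus strand: gtaaattgAATAAAgctagccgtgatcctc
Itgb1 A_51_P286527, bases 1 to 30 of the probe at chr8:131256492-131256551, plus strand: aAATAAAattgacacagttgatgttcaagt
Itgal A_52_P424970, bases 14 to 43 of the probe at chr7:134478358-134478417, plus strand: tacgcccaAATAAActtacttgagtgtgct
The hexamer, searched on the probe strand only, was in 3 of the 21 receptor probes (14.3%) and in 4.78% of all 41174 probes. A match is a match of letters and was not tested as a site of cleavage.

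None of the 10 receptors passed the criteria of the study's methods, which ask for over 2-fold together with p below 0.01 before adjustment. Of the 21 probes, 19 were tested because both arrays of 1 genotype or the other read them well above background, 16 were above background on all 4 arrays, and 2 Itga4 probes were above it on none. In the limma fit, 0 of 19 were called lower and 0 higher. Over all 22007 tested probes, 0.6% were called lower and 0.136% higher. With the slide as a block the count was again 0 in both directions, against 1.4% and 0.591% of all tested probes. No probe of the whole array had an adjusted p under 0.05 in limma (618 had an unadjusted p under 0.05), while 50 had one with the slide as a block. No receptor probe reached an unadjusted p of 0.05 by limma with or without the block, and 1 did by the methods' t-test, that of Itga5. With 2 arrays per genotype, an exact permutation test cannot give a two-sided p below 0.333.

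The direction of the 19 differences was mostly toward lower values in KO cells, but their size was within the gaps between arrays of 1 genotype. The difference was negative for 15 of 19 probes (78.9%), against 43.7% of all tested probes. The median was -0.29 on the log2 scale, against 0.08 for all tested probes. Without KO 2 the median was -0.0184 with 12 of 19 negative, without WT 1 it was -0.17 with 11 of 19, and without KO 1 it was -0.56 with 14 of 19. These 19 probes come from 10 genes and are not independent of each other, and Itga4 alone gave 4 of the 15 negative ones. At the brightest probe of each gene, 7 of 10 were lower, with a median of -0.11. For 17 of 19, the difference between genotypes was smaller than the larger of the gaps between the KO arrays and between the WT arrays. The KO arrays were the further apart for 13 of the probes, with a median gap of 0.77 against 0.35 between the WT arrays, and over all tested probes these gaps were 0.71 and 0.37. Both KO values lay below both WT values for 5 of the 19 probes (26.3%), against 10.9% of all tested probes, and above both for 1 probe, against 16% of all. The difference was negative on both slides for 10 probes (52.6%), against 21% of all tested probes, and positive on both for 1, against 30.3%. Without scaling between arrays, where the median of all probes was -0.30, 18 of 19 were lower, and with normexp background correction 12 of 19 were.

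**Figure D1:**
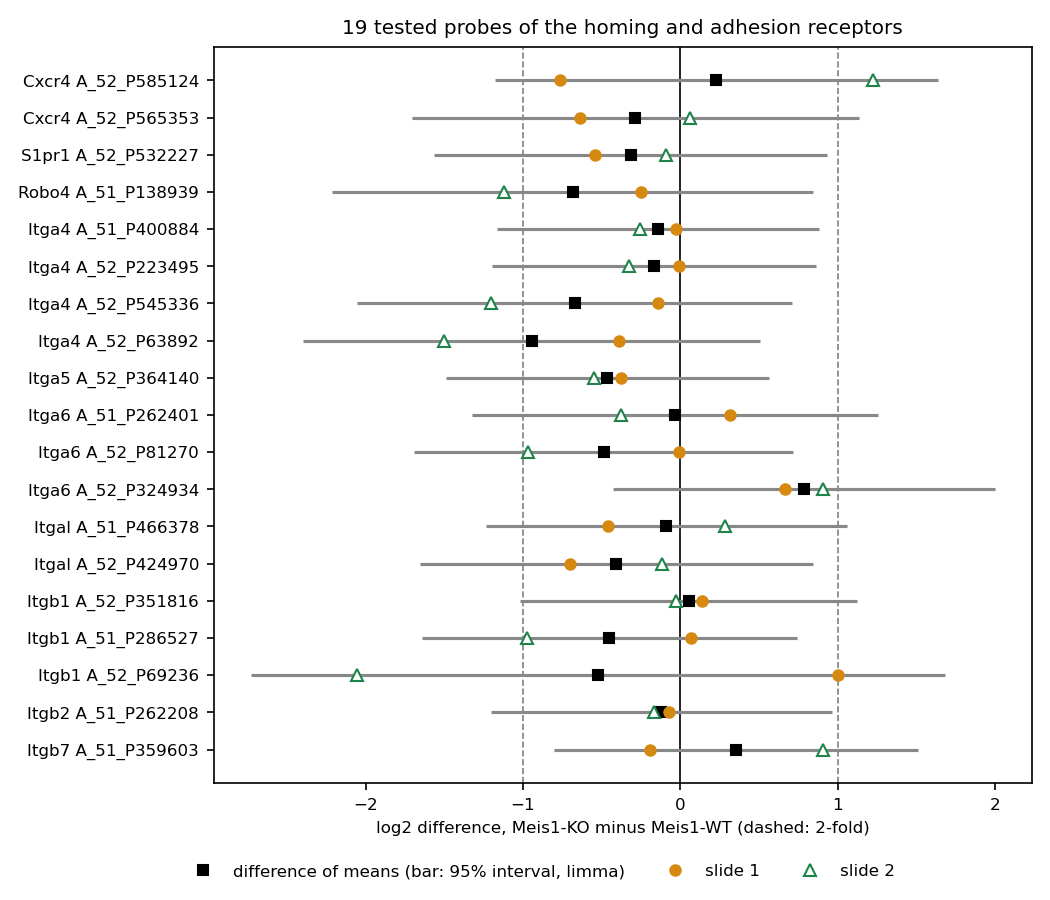
Log2 difference, KO minus WT, for each of the 19 tested receptor probes: squares are the difference of genotype means with its 95% interval from limma, circles the difference on slide 1 and open triangles that on slide 2. All 19 intervals span 0 and none lies wholly between the dashed lines that mark 2-fold, and 8 of the 19 probes have opposite signs on the slides.

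The precision was low for every probe. All 19 of the 95% intervals spanned 0, and none of them lay wholly within 2-fold in either direction. The standard errors ran from 0.42 to 0.91 on the log2 scale, and the adjusted p-values from 0.983 to 0.996. The interval that reached highest was that of Itga6 A_52_P324934, to 2.00, and the one that reached lowest was that of Itgb1 A_52_P69236, to -2.73. A 2-fold change in 1 direction at least was therefore within the error of each measurement, as the plot of differences with their intervals shows.

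Among the G protein-coupled receptors, Cxcr4 gave a different sign on each slide. Probe A_52_P585124, with the polyadenylation signal, read 3.70 on KO 1 and 4.80 on KO 2, and 4.47 on WT 1 and 3.57 on WT 2. The highest and the second lowest of these were KO arrays, and the genotypes overlapped. Cxcr4 by this probe was 1.70-fold lower in KO cells on slide 1 and 2.34-fold higher on slide 2. The mean difference was 0.23 ± 0.58 (SE, limma; adjusted p = 0.984), and it turned to -0.32 without array KO 2 and to -0.22 without array WT 2. Probe A_52_P565353, the upstream one, read 2.87 and 2.27 in KO and 3.51 and 2.21 in WT. On slide 1 this probe was 1.56-fold lower in KO cells, near the other probe, whereas on slide 2 the genotypes lay 1.04-fold apart, and the mean difference was -0.29 ± 0.58. Without WT 1 it was 0.36, without KO 2 it was 0.0145, and without WT 2 it was -0.94. The probes thus gave like differences on slide 1 and unlike ones on slide 2, where the array KO 2 is.

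S1pr1 had a single probe, A_52_P532227 (chr3:115414020-115414079), which read 2.57 and 2.08 in KO and 3.11 and 2.17 in WT. KO was the lower on both slides, by 1.45-fold and 1.07-fold, but KO 1 lay above WT 2, so the genotypes overlapped. The mean difference was -0.32 ± 0.51 (SE, limma; adjusted p = 0.983), and without WT 1 it was 0.15. Levels on slide 2 were below those on slide 1 in both genotypes, a gap of 0.93 in WT, which is larger than the difference between genotypes.

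Robo4 was the receptor with the largest difference at its brightest probe. Probe A_51_P138939 (chr9:37221537-37221596) read 1.10 on KO 1 and -0.42 on KO 2, and 1.35 and 0.70 in WT. KO 2 was the lowest of the 4 arrays, and KO 1 lay between the WT arrays. Robo4 was 1.19-fold lower in KO cells on slide 1 and 2.18-fold lower on slide 2, with a mean of 1.61-fold (-0.69 ± 0.63, SE, limma; adjusted p = 0.983). Without array KO 2 the difference was 0.08, and without KO 1 it was -1.45. Of the endothelial markers, where Robo4 is also known, Cdh5 and Sox17 were below background on all 4 arrays, whereas Emcn, Tie1 and Egfl7 were above it on all 4 and Kdr and Sox18 on all but KO 2. Emcn, Tie1, Kdr and Sox18 read lowest on KO 2, as Robo4 did, while Egfl7 (3.02 and 4.38 in KO, 3.36 and 3.24 in WT) and Flt1, which was below background on both WT arrays, read highest there. The part of endothelial RNA in the Robo4 values was not tested.

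**Figure D2:**
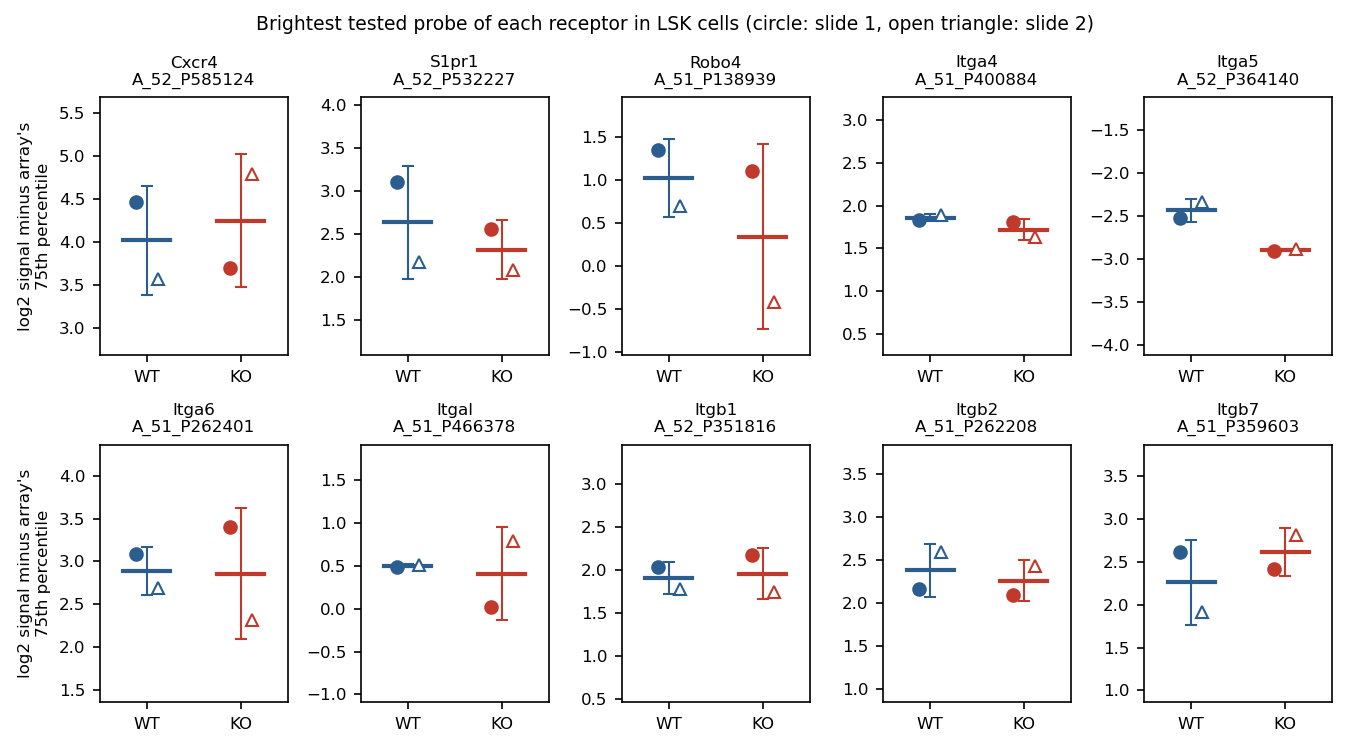
Level of the brightest tested probe of each receptor, as log2 signal minus the array's 75th percentile, on the WT (blue) and KO (red) arrays, with slide 1 as circles and slide 2 as open triangles; lines are means, bars are SD (n = 2 arrays), and every panel spans the same number of log2 units. Only Itga4 and Itga5 have both KO points below both WT points, and the Cxcr4 points cross between slides.

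Itga4, the alpha chain of VLA-4, had slightly lower levels in KO cells at its bright probes, by less than the standard error. Probe A_51_P400884 (chr2:79166873-79166932) read 1.81 and 1.63 in KO and 1.83 and 1.89 in WT. Both KO values lay below both WT values, by 1.02-fold on slide 1 and 1.19-fold on slide 2, and the mean difference was -0.14 ± 0.42 (95% interval -1.16 to 0.88). A second bright probe, A_52_P223495, read 1.59 and 1.35 in KO and 1.60 and 1.68 in WT, with a mean difference of -0.17. These bright probes had the smallest differences of the 4 tested for Itga4. The others were near background and below it on KO 2. A_52_P63892 read -2.92 and -4.39 in KO and -2.53 and -2.88 in WT (-0.95 ± 0.60), and A_52_P545336, designed to a cDNA clone, read -2.66 and -4.00 in KO and -2.52 and -2.79 in WT (-0.67 ± 0.57). A_52_P526816 and A_52_P373392, also designed to cDNA clones, were below background on all 4 arrays. Leaving out KO 1, so that KO 2 stood alone, took A_52_P63892 past the criteria, with a difference of -1.68, whereas without KO 2 the difference was -0.21. With normexp background correction the sign of both dim probes turned, to 0.15 for A_52_P63892 and 0.16 for A_52_P545336.

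Itga5, the alpha chain of VLA-5, was read by a dim probe, A_52_P364140 (chr15:103175022-103175081), which was above background on all 4 arrays. It read -2.90 and -2.89 in KO and -2.53 and -2.34 in WT. KO was the lower by 1.30-fold on slide 1 and 1.47-fold on slide 2, and the genotypes did not overlap. The mean difference was -0.46 ± 0.42 (SE, limma; adjusted p = 0.983). With normexp background correction the sign turned and the difference was 0.14.

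Itga6, a laminin receptor chain, had 3 tested probes that did not share a direction. The brightest, A_51_P262401, read 3.40 and 2.32 in KO and 3.09 and 2.69 in WT, so that the KO arrays were the highest and the lowest, with a mean difference of -0.03 ± 0.53. Probe A_52_P81270 read 1.09 and 0.16 in KO and 1.10 and 1.12 in WT, a difference of -0.49 ± 0.50 that came from slide 2. Probe A_52_P324934, designed to a cDNA clone, read -2.07 and -1.28 in KO and -2.73 and -2.19 in WT, and was the only tested receptor probe with both KO values above both WT values (0.79 ± 0.50, 1.73-fold). The 3 probes span the stretch from chr2:71692909-71692968 to chr2:71695973-71696032.

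Itgal and Itgb2 together form LFA-1 on leukocytes. Itgal probe A_51_P466378 read 0.02 and 0.79 in KO and 0.48 and 0.51 in WT, with KO the lower on slide 1 and the higher on slide 2 (-0.09 ± 0.47). Its other probe, A_52_P424970, with the polyadenylation signal, read -0.78 and -1.18 in KO and -0.08 and -1.06 in WT (-0.41 ± 0.51), a difference that was 0.08 without WT 1 and -0.90 without WT 2. Itgb2 had 1 probe, A_51_P262208 (chr10:77027978-77028037), with levels of 2.09 and 2.42 in KO and 2.16 and 2.59 in WT. KO lay 1.05-fold lower on slide 1 and 1.12-fold lower on slide 2, a mean difference of -0.12 ± 0.45, and without WT 2 the difference was 0.10. Itgb7, the beta chain that pairs with Itga4 to bind Madcam1, read 2.41 and 2.81 in KO and 2.61 and 1.91 in WT (chr15:102046450-102046509). The KO values were 1.14-fold lower on slide 1 and 1.87-fold higher on slide 2, with a mean of 0.35 ± 0.48 (1.28-fold higher, adjusted p = 0.983). Without WT 2 the difference was 0.0056, and without WT 1 it was 0.70. These chains are also found on mature leukocytes. The summed linear level of 13 granulocyte and monocyte markers, each relative to its array's 75th percentile, was 179 and 139 in KO and 195 and 75.02 in WT, that of 14 T and NK cell markers 7.14 and 10.5 against 7.87 and 7.53, and that of 12 B lineage markers 12.5 and 9.16 against 19.8 and 8.20. Vpreb1 alone made up 10.2 and 6.72 of the B lineage sum in KO and 15.6 and 5.94 in WT, and all 7 tested B lineage probes were lower in KO cells, with a median of -0.62. Mpo alone made up 117 and 82.0 of the granulocyte and monocyte sum in KO and 94.1 and 46.8 in WT. Nkg7 alone made up 4.04 and 7.76 of the T and NK sum in KO and 4.27 and 3.67 in WT. Of the granulocyte and monocyte probes 8 of 12 were lower, with 1 called lower, and of the T and NK probes 6 of 10. The part of these cells in the receptor values was not tested. Fewer cells of a type and less RNA per cell cannot be told apart in such bulk samples.

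Itgb1, the beta chain shared by VLA-4, VLA-5 and the laminin receptor, was read by 3 probes with different results on slide 2. The upstream probe, A_52_P351816, read 2.17 and 1.74 in KO and 2.03 and 1.77 in WT, and the genotypes lay within 1.10-fold of each other on both slides (0.05 ± 0.44). The probe with the polyadenylation signal, A_51_P286527, read 1.64 and 0.74 in KO and 1.57 and 1.72 in WT. On slide 1 KO was 1.05-fold higher, and on slide 2 it was 1.96-fold lower, which gave a mean of -0.45 ± 0.49. This probe is printed 10 times on each array, and its spots on 1 array varied by a coefficient of variation of 1.91% to 4.75%, so that the low reading on KO 2 (8 spots used, 2 marked as outliers) was shared by all of its spots. The spread of these spots is technical and is not the spread between pools of mice. The third probe, A_52_P69236, was designed to the beta1D splice form known from striated muscle, and its annotated span, chr8:131250931-131255949, is longer than the probe, so the probe spans an intron. Its levels were -2.15 on KO 1 and -4.97 on KO 2, the latter below background, and -3.15 and -2.92 in WT. KO 1 was thus the highest and KO 2 the lowest (-0.53 ± 0.91), and the difference was -1.94, past the criteria, without KO 1, 0.89 without KO 2 and 0.33 with normexp background correction.

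**Figure D3:**
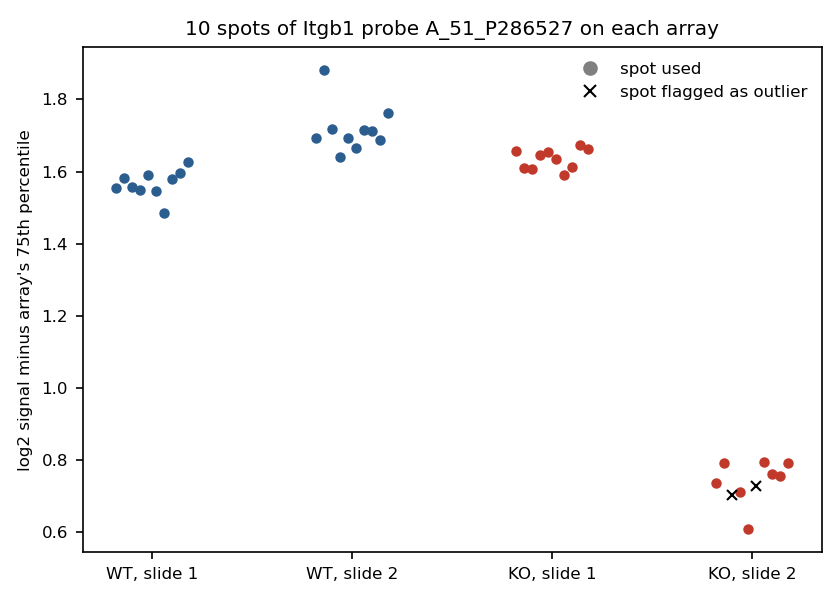
Level of each of the 10 spots of Itgb1 probe A_51_P286527 on the 4 arrays, as log2 signal minus the array's 75th percentile; crosses are spots marked as outliers. The spots of array KO 2 lie together below 0.80, apart from those of the other 3 arrays, and the y axis does not start at 0.

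Ligands and partners of the receptors were read from 7 lists, with 141 genes on the array, 282 probes and 172 tested probes. Of these 172, 3 were called lower and 0 higher, against 0.6% and 0.136% of all tested probes, and the median difference was -0.04. With the slide as a block 4 were called lower, against 1.4% of all. Of the 3 that were called without the block, 1 is in the Cxcr4 list and 2 are in the sphingosine-1-phosphate list. These lists were chosen with earlier results of these data known. Cxcl12, the ligand of Cxcr4, fell: probe A_51_P172502 read -4.26 and -3.53 in KO, below background on both arrays, and -1.10 and -1.64 in WT, above it on both. This is at least 5.11-fold lower in KO cells (measured -2.53 ± 0.49, SE, limma; adjusted p = 0.846). The call was lost without WT 1, where the difference was -2.26, and without KO 1 the measured fold was 4.48. With normexp background correction the difference was -0.39, only 1.31-fold. The other Cxcl12 probe, A_52_P685021, was below background on all 4 arrays. Cxcl12 is made mainly by stromal cells. The summed level of 18 endothelial and stromal markers, Cxcl12 among them, was 13.9 and 27.8 in KO and 16.5 and 17.2 in WT, with 5 of 18 above background on all 4 arrays and 7, including Lepr, Pdgfra and Col1a1, above it on none. Among those above it throughout, Pdgfrb differed by 0.01 and Col1a2 by -0.05, and Flt1, below background on both WT arrays, was at least 1.49-fold higher in KO (measured 1.87) and was called higher with the slide as a block. Egfl7 alone made up 8.10 and 20.8 of that sum in KO and 10.3 and 9.43 in WT. Of the 9 tested probes of the list, 6 were lower in KO cells and the median difference was -0.29, and the part of these cells in the Cxcl12 value was not tested.

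Sphk1, the kinase that makes sphingosine-1-phosphate, was called lower by both of its probes. Probe A_51_P501248 read -3.52 and -3.53 in KO, the latter below background, and -1.40 and -0.52 in WT, a 5.92-fold lower level (-2.56 ± 0.49, SE, limma; adjusted p = 0.846). Probe A_52_P400436 was below background on both KO arrays, at -5.09 and -4.62, and read -3.36 and -2.36 in WT, which is at least 1.82-fold lower. The first call was lost without WT 2, at a difference of -2.12. The second was lost without KO 1 (-1.76), WT 1 (-2.50) or WT 2 (-1.50), and with an intensity trend in the fit. With normexp background correction, and so with the same offset, the first probe differed by -0.62 and the second by 0.02. None of the 3 calls of Cxcl12 and Sphk1 was made by the methods' t-test or with normexp background correction. A filter on background on all 4 arrays removes these probes before the test, since each was below it on a KO array. In the plot of the differences by slide, these probes lie below the receptors on slide 1, while on slide 2 their range overlaps that of the receptors.

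**Figure D4:**
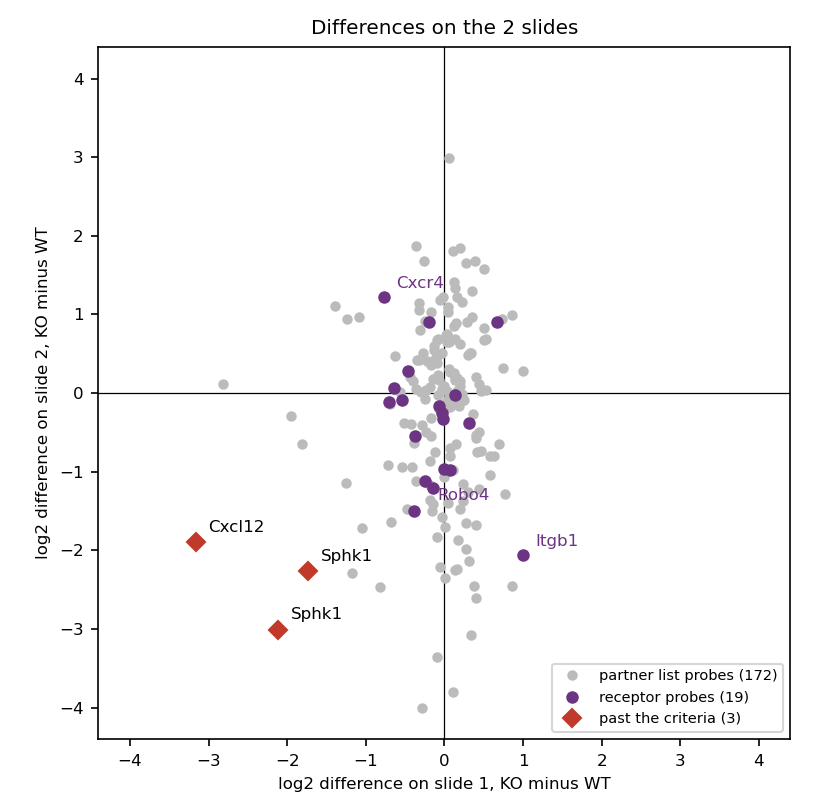
Log2 difference, KO minus WT, on slide 1 (x axis) and on slide 2 (y axis) for the 172 tested probes of the partner lists (grey), the 19 tested receptor probes (purple) and the 3 probes past the criteria (red diamonds). The diamonds of Cxcl12 and Sphk1 lie below -1.7 on both axes, and no receptor probe lies below -0.77 on the x axis.

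The other ligands and paralogous receptors did not pass the criteria. Of the Cxcr4 axis, the scavenger receptor Ackr3 was below background on all 4 arrays, and the 3 probes of Dpp4, the peptidase that cleaves Cxcl12, differed by 0.14, 0.75 and -0.05. Of 44 tested probes of that list, 18 were lower and 26 higher, with Cxcl12 the only one called. S1pr4 was the largest difference upward in all partner lists among genes above background on all 4 arrays and of like sign on both slides, at -0.02 and 0.98 in KO and -0.07 and -2.02 in WT (1.52 ± 0.75, SE, limma; adjusted p = 0.983). That difference was 0.05 on slide 1 and 2.99 on slide 2, where WT 2 was low. S1pr3 differed by 0.76, the probes of S1pr2 disagreed at 0.59 and -0.81, and S1pr5 was below background on all 4 arrays. Of 13 tested probes in the sphingosine-1-phosphate list, 5 were lower and 8 higher, with 2 called lower.

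Of the Robo and Slit list, 7 of 8 tested probes were lower, against 43.7% of all tested probes. Their median was -0.96, and none was called. These 8 probes are of 4 genes, of which 3 were lower and 1 higher at the brightest probe (median -0.67). Robo3 probe A_51_P481494 read -3.61 and -1.19 in KO and -1.66 and -0.90 in WT (-1.12 ± 0.83), and Robo1 was not tested, since 1 of its probes was above background on WT 1 alone and the other on no array. Among the integrin ligands of the niche, 6 of 9 tested probes were lower and none was called. Vcam1, which VLA-4 binds, differed by -0.64 and Fn1, the fibronectin gene, by -1.14, each below background on KO 2, while Icam1 differed by -0.42 and Icam2 by 0.52, and Madcam1 was below background on all 4 arrays.

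Among the other integrin subunits, 7 of 13 tested probes were lower and 6 higher, with none called. Itga2b, the alpha chain of the platelet fibrinogen receptor, had the largest difference downward by the same rule, at -2.71 and -2.56 in KO and -1.90 and -0.08 in WT (-1.65 ± 0.66, SE, limma; adjusted p = 0.983). The summed level of 12 megakaryocyte markers, Itga2b among them, was 47.3 and 35.1 in KO and 39.6 and 63.1 in WT, and its part in the Itga2b value was not tested. Of the integrin activators and adaptors, 29 of 52 tested probes were lower and 23 higher, with none called and a median of -0.11. Ptk2b, the focal adhesion kinase relative Pyk2, read 2.11 and 0.55 in KO and 2.21 and 2.38 in WT at its brighter probe (-0.96 ± 0.61), where KO 2 alone was low. Of the selectin ligands and other adhesion molecules, 16 of 33 were lower and 17 higher. Fut7 and Fut4, fucosyltransferases that make selectin ligands, were higher by 1.03 each on the log2 scale (adjusted p = 0.983 for both in limma), most of it on slide 2. Jam2, a junctional adhesion molecule, was not called at probe A_52_P374846, and was called there with the slide as a block and, at -2.80, without KO 1 (-1.73 ± 0.79, SE, limma; adjusted p = 0.983 without the block and adjusted p = 0.430 with it), whereas its brighter probe A_51_P418375 differed by 0.21. Summed levels of 12 erythroid markers were 104 and 248 in KO and 92.4 and 28.1 in WT, of which Hbb-b1 alone made up 93.6 and 243 in KO and 79.0 and 22.0 in WT. Of the 11 tested erythroid probes 5 were lower and 6 higher. Those of 8 plasma cell markers were 7.64 and 47.2 against 47.3 and 23.8, with all 9 tested probes lower in their mean difference. The part of these cells in any of these differences was not tested.

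Promoter sequence, 250 bases before to 50 after the start of the gene (RefSeq, GRCm38.p6), was given for 6 of the 10 receptor genes. The letters TGACAG, the core motif of Meis and Tgif factors, were on neither strand in any of the 6, and on 1 strand at least in 19.2% of all 32851 promoters of that length. This says only that these letters are not in these windows.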

How the data were processed

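RNA of sorted LSK cells (10 ng per pool) was amplified and given a Cy3 label for 1-color Agilent arrays. The authors deposited the intensity of each spot as Feature Extraction 9.5.3.1 wrote it. In the processed signal, background and spatial trend are removed, and a surrogate value replaces spots that are not above background. It was not scaled between arrays. Positions are those of the array annotation (mm9), and exons and untranslated regions were not annotated here. Gene names are those of the array. Of 21 receptor probes, 14 had an accession in a GRCm38.p6 RefSeq table, with 0 differing symbols.

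Controls and spots marked as outliers were removed, log2 signals were centered on the 75th percentile of each array and spots of a probe were averaged. Genotypes were compared by limma 3.58.1 in R 4.3.3 (lmFit and eBayes), with genotype as the only term and Benjamini-Hochberg adjustment over 22007 tested probes. The 2 arrays per genotype limit the precision. A fold of a probe below background on both arrays of a genotype is a bound, against the higher of its own signal and the lowest signal well above background on each array.

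The receptors, the 7 partner lists and the marker lists (LSK, B lineage, plasma cell, T and NK, granulocyte and monocyte, erythroid, megakaryocyte, endothelial and stromal) were chosen with earlier results of these data known. Named partner genes were those with a called probe, the direct ligands and paralogs, and the 3 largest differences in each direction at the brightest probe that were above background on all arrays and of like sign on both slides. Replicate numbers pair the samples by slide, as the file headers record, and the departures of both arrays of a slide from the mean of their genotype had a correlation of 0.266 over probes. Alternatives were median, quantile and no scaling, normexp background correction (offset 50), dim probes kept or required to be above background throughout, the value table the authors made, an intensity trend, outlier spots retained, a block for the slide, the t-test of the methods, the mean over a gene's probes, and leaving out 1 array at a time.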

Additional observations from a re-analysis of the deposited data

How the results depend on the processing

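No receptor probe was called lower or higher under any of the alternatives, except that leaving out each array in turn gave 0 to 2 receptor probes lower (2 without KO 1). Partner list probes called lower, 3 in the report, numbered 0 with normexp background correction, 0 among probes above background on all 4 arrays (a filter that leaves out the 3), 0 by the methods' t-test, and 1 to 18 with an array left out (18 without KO 1, 6 without KO 2 and 1 without either WT array). Probes called higher numbered 0 to 3 with an array left out (3 without KO 1). With the replicate block of the slide 4 partner probes were lower, and this paired fit left every receptor's mean difference as it was. Jam2 was the only call it changed among receptor and partner probes, and the second Meis1 probe also passed with it. Over all probes, 132 were called lower and 30 higher, against 307 and 130 with the block, 47 and 2 with normexp, 43 and 10 above background on all arrays, 23 and 7 by the t-test, 85 and 16 with an intensity trend, 125 and 14 without scaling, 194 and 100 with dim probes kept, and 57 to 1705 and 34 to 510 with an array left out. The sign of the difference at the brightest probe turned as follows, where leaving out the scaling or scaling to the median shifts every probe of an array alike. Without scaling, Cxcr4 was at -0.15, Itgb1 at -0.32 and Itgb7 at -0.0228. With quantile normalization Itgb1 was at -0.0308, with median scaling Itga6 at 0.0538, and with normexp Itga5 at 0.14 and Itgb1 at -0.10. As the mean over a gene's tested probes, Cxcr4 was at -0.0290, Itga6 at 0.0891 and Itgb1 at -0.31. With an array left out, differences ran from -0.32 to 0.78 for Cxcr4 (below 0 without KO 2 or WT 2), -0.78 to 0.15 for S1pr1 (above 0 without WT 1), -1.45 to 0.0764 for Robo4 (above 0 without KO 2), -0.57 to 0.51 for Itga6 (above 0 without KO 2 or WT 1), -0.47 to 0.29 for Itgal (above 0 without KO 1), -0.16 to 0.27 for Itgb1 (below 0 without KO 1 or WT 2) and -0.34 to 0.10 for Itgb2 (above 0 without KO 1 or WT 2), and with no change of sign from -0.23 to -0.0528 for Itga4, -0.56 to -0.37 for Itga5 and 0.0056 to 0.70 for Itgb7. Of the other receptor probes, Cxcr4 A_52_P565353 turned to 0.36 without WT 1 and 0.0145 without KO 2, Itgal A_52_P424970 to 0.08 without WT 1, and the beta1D probe of Itgb1 to 0.89 without KO 2. Normexp also turned the dim Itga4 probes and the beta1D probe of Itgb1. The cause was not tested. With an array left out, the fit takes the spread of the remaining array's genotype from the other genotype. Signal over background limits Itga5, the dim Itga4 probes, the beta1D probe of Itgb1, Cxcl12 and Sphk1.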
